A study of Mus musculus with 10 samples.

Results

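Mitochondrial ribosomal protein genes are nuclear genes whose products, imported into mitochondria, build the ribosome that translates the proteins encoded in mitochondrial DNA. They were taken as every gene with a symbol of the form Mrpl or Mrps followed by a number among the genes to which the authors assigned a promoter peak of RNA polymerase II. This gave 59 of 10419 genes, 37 named for the large subunit (Mrpl) and 22 for the small subunit (Mrps). RNA polymerase II was mapped by chromatin immunoprecipitation and sequencing (ChIP-seq, antibody 8WG16, ab817) in primary Th1 cells, interferon gamma-producing T helper cells, of Balb/c DO11.10 mice, whose T cells carry a transgenic receptor for an ovalbumin peptide. CD4+ cells had been polarised to Th1, grown in an interleukin 2 analogue and then kept without it for a day. Cells restimulated for 30 min or for 2 h with plate-bound anti-CD3 (5 µg/ml) and soluble anti-CD28 (2.5 µg/ml), and cells not restimulated (NR), gave 2 libraries each, all from chromatin fixed in 1% formaldehyde for 10 min. Separate animals or cultures are not stated for the libraries of a group. The p-values given here reflect the spread of these libraries alone, and that spread can be technical. In bulk chromatin, fewer cells with polymerase at a gene and less polymerase per cell cannot be told apart.

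The mitochondrial ribosome makes a small set of core subunits of the respiratory chain and of ATP synthase, and its other partners are initiation, elongation and recycling factors, mitochondrial tRNA synthetases and ribosomal RNA-modifying enzymes, all imported from the cytosol. The small subunit carries the decoding site and the large subunit joins amino acids and holds the exit tunnel. T cell activation is known to be accompanied by growth of the mitochondrial mass and of its translation machinery. The symbol does not always give the place in the ribosome: in human mitochondrial ribosome structures the counterparts of Mrps18a and Mrps30 sit in the large subunit. Subunits are given here by symbol.

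The libraries differed in depth, and the cells carried the marks of their label. The deposited lists held no read counts. Depth relative to NR replicate 1, inferred from background pileup under the assumption of equal fragment length, was 8.93 in NR replicate 2, 2.39 and 7.06 in the 30 min libraries and 3.76 and 8.43 in the 2 h libraries (replicates 1 and 2). Promoter peaks numbered 9360 and 10383 in NR cells, 9074 and 10680 at 30 min, and 10549 and 10658 after 2 h. Of 12 T cell and Th1 marker genes, 11 or 12 had a peak in each library. None of 5 B cell, 5 myeloid and 2 erythroid markers had one in any library, nor did Foxp3. Il4 or Gata3 had a peak in every library, Cd8b1 in each replicate 2 and Eomes in 2 h replicate 2.

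The promoters of 52 of the 59 genes had an entry in the RefSeq table (GRCm38.p6, 250 bases before to 50 bases after a gene's start). Mrpl15, Mrpl19, Mrpl38, Mrpl4, Mrpl54, Mrps28 and Mrps35 had none. Each window was searched on both strands for CCGGAAG, the core bound by ETS factors, for GCGC followed by any base and TGCGC, the site of NRF1, a regulator of nuclear genes for mitochondrial proteins, and for AANATGGCG, a YY1 site. CCGGAAG stood in 16 of 52 promoters (30.8%), against 20.5% of the 7615 coding genes with an assigned peak and 12.1% of all 17491 coding genes in the table. The NRF1 site stood in 9 (17.3%, against 11.8% and 6.69%), and AANATGGCG in 7 (13.5%, against 5.99% and 3.36%). At least 1 of the 3 was present in 29 of 52 (55.8%), against 33.9% of the coding genes with an assigned peak, and no ETS match overlapped a YY1 match. GGGCGG, bound by Sp and KLF factors, was in 40.4%, against 67.7% and 47.0%, and TATAAA in 7.69%, against 5.86% and 13.3%. CCAAT (NFY) was in 42.3%, against 38.9% and 38.8%, TGACGTCA in 1.92%, against 3.45% and 2.32%, and CACGTG in 5.77%, against 10.8% and 7.92%. A match is a description of the letters in this window, and these shares were not tested.

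Printed here are 5 promoters of genes named in the results that follow and that of Mrps11, which also holds the start of its opposite-strand neighbour Mrpl46. ETS, NRF1 and YY1 matches are in capitals. Mrpl33 (chr5:31613701-31614000, plus strand) holds an ETS match, Mrpl17 (chr7:105811038-105811337, minus strand) an ETS and an NRF1 match, and Mrps9 (chr1:42850983-42851282, plus strand) an NRF1 match. Mrps18a (chr17:46110754-46111053, plus strand) holds an ETS and a YY1 match, while Mrps24 (chr11:5707652-5707951, minus strand) and Mrps11 (chr7:78782881-78783180, plus strand) hold a YY1 match each.
Mrpl33: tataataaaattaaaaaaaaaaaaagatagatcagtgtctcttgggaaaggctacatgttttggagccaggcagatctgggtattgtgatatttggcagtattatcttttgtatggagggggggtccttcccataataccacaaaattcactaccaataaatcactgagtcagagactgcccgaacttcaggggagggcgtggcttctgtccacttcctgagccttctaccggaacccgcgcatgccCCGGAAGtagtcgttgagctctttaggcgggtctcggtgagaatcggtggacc
Mrpl17: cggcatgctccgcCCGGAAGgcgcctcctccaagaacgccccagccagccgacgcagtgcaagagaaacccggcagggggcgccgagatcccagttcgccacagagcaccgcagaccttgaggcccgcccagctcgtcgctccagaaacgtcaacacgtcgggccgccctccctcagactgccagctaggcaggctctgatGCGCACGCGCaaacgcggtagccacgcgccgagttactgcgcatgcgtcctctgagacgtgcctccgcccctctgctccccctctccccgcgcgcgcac
Mrps9: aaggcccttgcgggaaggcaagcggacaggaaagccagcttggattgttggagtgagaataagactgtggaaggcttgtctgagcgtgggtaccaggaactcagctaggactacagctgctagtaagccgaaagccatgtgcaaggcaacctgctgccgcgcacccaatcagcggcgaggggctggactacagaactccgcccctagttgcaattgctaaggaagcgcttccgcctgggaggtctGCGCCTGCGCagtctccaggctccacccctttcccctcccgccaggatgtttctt
Mrps18a: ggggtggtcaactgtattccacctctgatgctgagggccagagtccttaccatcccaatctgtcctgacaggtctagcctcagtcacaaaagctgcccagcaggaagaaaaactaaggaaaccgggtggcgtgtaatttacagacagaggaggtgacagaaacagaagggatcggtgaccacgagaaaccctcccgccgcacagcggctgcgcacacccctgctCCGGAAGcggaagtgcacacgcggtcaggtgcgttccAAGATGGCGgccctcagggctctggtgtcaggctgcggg
Mrps24: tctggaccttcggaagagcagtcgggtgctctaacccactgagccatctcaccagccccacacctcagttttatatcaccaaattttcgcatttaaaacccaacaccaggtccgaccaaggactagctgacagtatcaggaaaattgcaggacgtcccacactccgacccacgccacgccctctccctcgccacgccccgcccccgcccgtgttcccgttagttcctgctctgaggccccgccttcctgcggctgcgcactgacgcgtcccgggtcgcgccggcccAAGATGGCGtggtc
Mrps11: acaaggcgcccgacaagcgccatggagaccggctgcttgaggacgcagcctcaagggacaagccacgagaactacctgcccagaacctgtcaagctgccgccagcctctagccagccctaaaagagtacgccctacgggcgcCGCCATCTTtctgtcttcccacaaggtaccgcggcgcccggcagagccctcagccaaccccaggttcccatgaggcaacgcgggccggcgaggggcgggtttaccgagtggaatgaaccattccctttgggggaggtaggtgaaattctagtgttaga

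Nearly all of these genes carried a promoter peak in every library. A peak was assigned to 53 of the 59 genes (89.8%) in all 6 libraries, against 71.1% of all genes. By library, 54 and 57 genes had a peak in NR cells, 56 and 57 at 30 min, and 57 and 57 at 2 h. In 328 of the gene-by-library cases with a peak the gene had 1 peak, and in 10 it had 2 or more. At 30 min, no gene of the set had gained a peak (called in both libraries, with none in NR cells) or lost one (the reverse), where 0.374% and 0.365% of all genes had. The same count was 0 and 0 at 2 h against NR, beside 2.57% and 0.662% of all genes, and 0 and 0 at 2 h against 30 min, beside 0.71% and 0.096%. With any called promoter peak within 1000 bp of the start counted, the family again had 0 gained and 0 lost. Over all genes, 3, 12 and 2 then lost a peak in the 3 comparisons, where the assignment gave 38, 69 and 10. Gains were 39, 266 and 61, where the assignment gave 39, 268 and 74.

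The 6 exceptions were missing from the shallower libraries or from the assignment. Mrpl11, which forms the stalk base where translation factors bind, had called lengths of 0 and 399 bp in NR libraries, 326 and 860 bp at 30 min and 884 and 1236 bp at 2 h. Mrps22 had 0 and 623 bp, 264 and 701 bp, and 573 and 758 bp in the same order. Both lacked a peak only in NR replicate 1, the shallowest library. Mrpl34, a short basic protein of the large subunit, had 0 and 1280 bp in NR libraries, 0 and 1207 bp at 30 min and 964 and 1190 bp at 2 h. Mrps25 had 0 and 395 bp, 0 and 300 bp, and 602 and 530 bp. Both lacked a peak in replicate 1 of NR and of 30 min, the 2 libraries with the lowest inferred depth. Mrpl14 had an assigned peak only in 30 min replicate 1 (403 bp) and Mrpl47 only in NR replicate 1 (269 bp), and these 2 were not tested. Counted by position, with any called promoter peak within 1000 bp of the start, both had one in all 6 libraries, and so did 55 of the 59 genes. The share of all genes by position was not taken.

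The authors' assignment of each peak to a single gene hid part of the family. RefSeq lists 78 coding genes of this name pattern, 49 Mrpl and 29 Mrps, and 19 of them received no peak. All 19 had a called promoter peak within 1000 bp in all 6 libraries, assigned to another gene (for Mrpl13 and Mrps34, which have no promoter entry, the distance was to an end of the gene). The peak at Mrpl18 was assigned to Tcp1, that at Mrpl32 to Psma2, that at Mrpl49 to Fau, that at Mrpl40 to Hira and that at Mrpl43 to Peo1, the mitochondrial DNA helicase. The peak at Mrps7 was assigned to Gga3, that at Mrps18c to Helq and that at Mrps21 to an unnamed transcript, C920021L13Rik. The peak at Mrpl58, a peptidyl-tRNA hydrolase that frees stalled mitochondrial ribosomes, was assigned to Ict1, which is its own older symbol. The peak at Mrps11 was assigned to Mrpl46, a gene of the same family whose start lies 42 bp away on the opposite strand, within the promoter printed for Mrps11. The other 9, with their assigned genes, were Mrpl13 (Mtbp), Mrpl21 (Ighmbp2), Mrpl27 (Eme1), Mrpl37 (Cyb5rl), Mrpl50 (Zfp189), Mrpl57 (Ska3), Mrps18b (Mir1894), Mrps26 (4930473A02Rik) and Mrps34 (Eme2). By position, 74 of the 78 genes thus had a called promoter peak within 1000 bp in all 6 libraries. Mrpl13 and Mrps34 are counted there by either end of the gene, and Mrps11 and Mrpl46 by the same peak. The same share over all genes was not taken.

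Shared promoters were frequent in the family. A coding gene on the opposite strand started within 1000 bp for 24 of the 69 family genes with a promoter entry (34.8%), against 9.23% of all coding genes. Among the genes with an assigned peak it was 10 of 52 (19.2%), against 11.8% of all coding genes with an assigned peak. Mrpl30 lies 66 bp from Mitd1, Mrps27 108 bp from Ptcd2, Mrpl2 141 bp from Klc4 and Mrps12 147 bp from Sars2, the mitochondrial seryl-tRNA synthetase. For 17 of the 59 genes the assigned peaks reached into the span of another coding gene, and polymerase on the 2 genes cannot be told apart there. The same count over all genes was not taken, so whether 17 is many is not known. Among genes with a peak in all 6 libraries, the mean called length had a median of 1058.2 bp for the 8 with such a partner and of 826.4 bp for the 38 without, with ranges that overlapped (681.8 to 1665.0 bp, and 529.7 to 1926.2 bp). These shares and medians were not tested.

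Peaks of these genes were short. The median called length, the summed width of a gene's promoter peaks, was 594 and 779 bp in NR libraries, 616 and 1009 bp at 30 min and 959 and 1139 bp at 2 h, where the median over all genes was 806 and 984 bp, 777 and 1284 bp, and 1121 and 1336 bp. The family median thus lay under that of all genes in each of the 6 libraries. Among the 53 genes with a peak in every library, replicate 2, the deeper of each group, had the longer call for 44 in NR cells, for 53 at 30 min and for 46 at 2 h. NR replicate 2 had the greatest inferred depth and a shorter family median than either 2 h library. How far depth sets these lengths was not tested. Of the 53 genes, the 33 Mrpl genes had median lengths of 602 and 831 bp in the NR libraries, 769 and 1038 bp at 30 min and 1000 and 1139 bp at 2 h. For the 20 Mrps genes the medians were 594 and 778.5 bp, 571.5 and 1029 bp, and 968 and 1137 bp. The Mrpl median was the higher in each library, with the widest gap in 30 min replicate 1, and the difference was not tested.

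**Figure D1:**
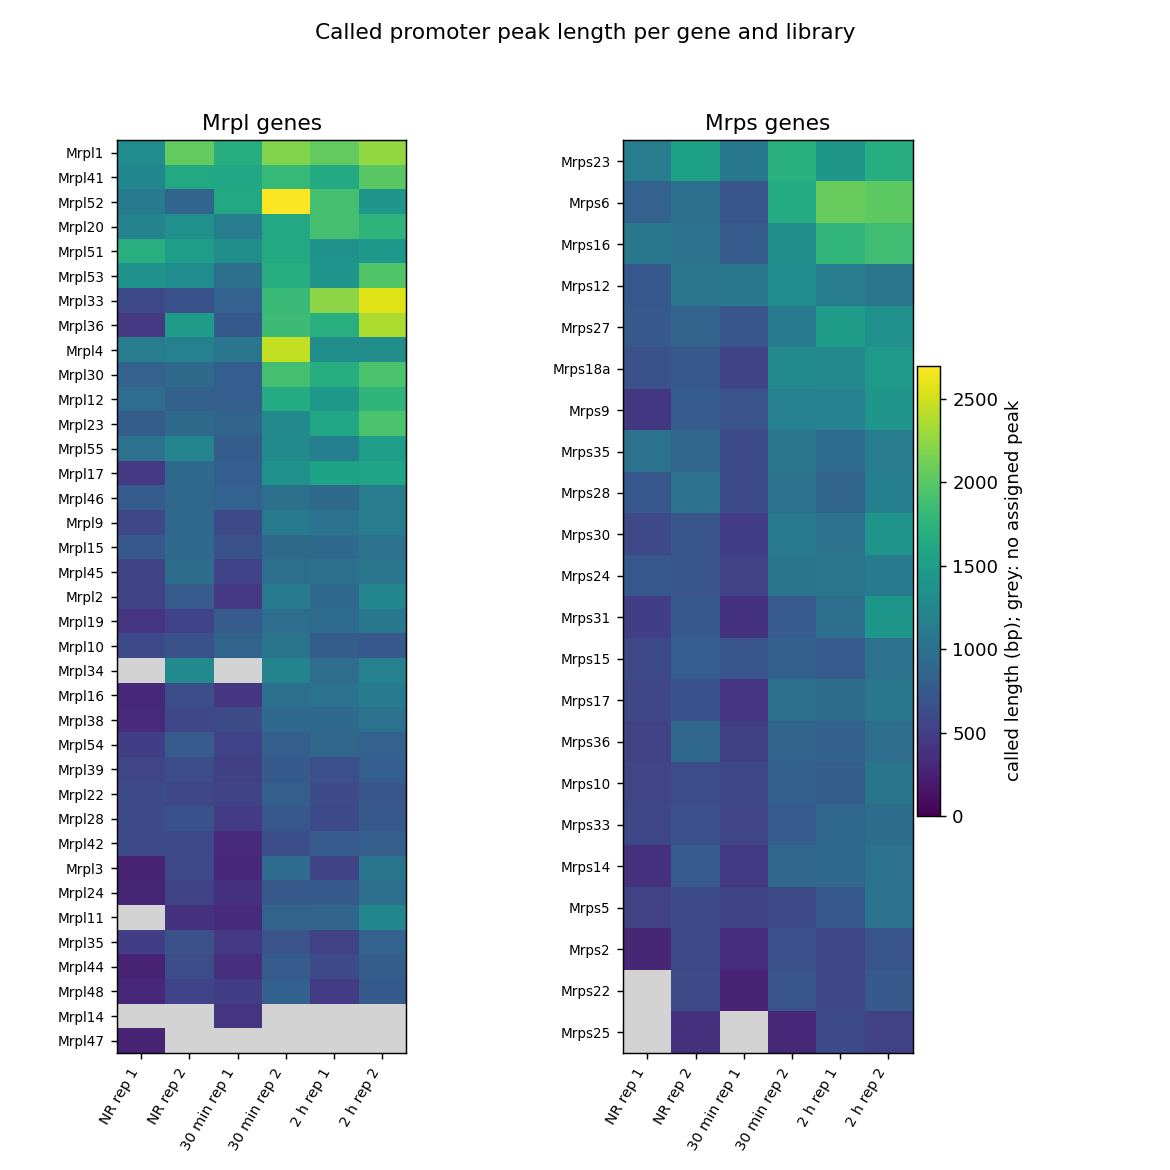
Called promoter peak length in bp (colour) for each of 37 Mrpl genes (left) and 22 Mrps genes (right) in the 6 libraries, genes ordered by mean length, grey where no peak was assigned. The replicate 2 columns are brighter than the replicate 1 columns, and Mrpl33 and Mrps6 are brightest at 2 h.

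The longest calls belonged to Mrpl1, of the stalk that guides spent tRNAs out, with a mean of 1926 bp over the 6 libraries, Mrpl41 (1665 bp), which has no bacterial counterpart, Mrpl52 (1607 bp), Mrpl20 (1500 bp) and Mrpl51 (1499 bp). For Mrpl1 the values were 1321 and 2050 bp in NR libraries, 1678 and 2193 bp at 30 min and 2053 and 2262 bp at 2 h. Both 2 h values were above both NR values in bp but overlapped them after centring, and the 30 min values overlapped both other groups. Its peak reached mainly upstream, 1002 to 1667 bp before the start in the 6 libraries against 318 to 672 bp after it. Among genes with a peak in all 6 libraries, the shortest belonged to Mrps2 (529.7 bp), Mrpl48 (568.5 bp), Mrpl44 (580.3 bp), which has a ribonuclease III-like fold, Mrpl35 (610.3 bp) and Mrpl24 (618.8 bp), a protein at the exit tunnel. These are lengths of called DNA and not levels per gene length.

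Ranked by fold enrichment within a library, the genes spread over the whole range. A percentile of 100 marks the highest promoter fold enrichment among the genes of that library, from the authors' value for each peak. The median percentile of the mitochondrial ribosomal genes was 38.4 and 39.2 in NR cells, 49.4 and 52.9 at 30 min, and 66.4 and 58.8 at 2 h. Since those lists differ in length, the ranks were also taken among the same 7410 genes with a peak in all 6 libraries, a choice made after the data were seen. There the medians over 53 genes were 33.6 and 26.5 in NR cells, 49.2 and 40.9 at 30 min, and 62.4 and 52.3 at 2 h. Over the same genes, 62 oxidative phosphorylation subunit genes had medians of 43.9 and 48.1, 43.9 and 48.9, and 42.4 and 50.3. A related list of mitochondrial gene expression also holds some ribosome subunits with other names. For 40 of its genes the medians were 41.4 and 38.9, 42.4 and 45.5, and 56.9 and 56.5. For 55 cytosolic ribosomal protein genes they were 84.5 and 77.2, 89.6 and 87.2, and 92.6 and 89.1. A difference between groups in these ranks was not tested, and no call of a change rests on them.

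The highest median percentiles were those of Mrps24 (94.9), Mrps18a (93.9), Mrps6 (88.1), Mrpl2 (87.1), a core protein of the peptidyl transferase region, and Mrps35 (84.2). Mrps24 ranked at 87.7 and 97.9 in NR cells, 80.3 and 98.5 at 30 min and 92.2 and 97.6 at 2 h, above the 75th percentile in every library. The peak assigned to Mrps6 also covers part of the span of Slc5a3, a myo-inositol transporter gene, and that of Mrpl2 reaches into Klc4, a kinesin light chain gene. The lowest among genes with a peak in all 6 libraries were Mrpl16 (18.6), Mrpl24 (19.0), Mrpl55 (21.3), Mrpl48 (24.6) and Mrps36 (26.2). Mrps24 and Mrps18a, at the top of the family in rank, had mean called lengths of 869.3 and 996.0 bp. The other 5 genes with a YY1 match had median percentiles of 30.8 (Mrpl42), 33.1 (Mrpl36), 53.1 (Mrps30), 54.0 (Mrps27) and 60.9 (Mrpl35).

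**Figure D2:**
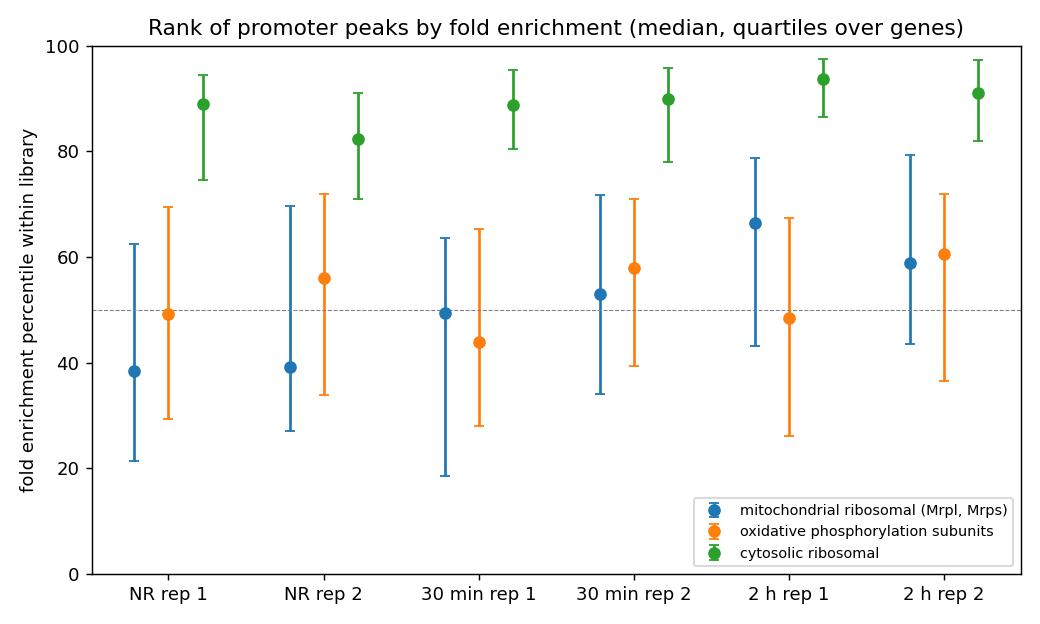
Fold enrichment percentile within each library (0 to 100) for mitochondrial ribosomal, oxidative phosphorylation and cytosolic ribosomal genes, with points at the median over genes and bars from the lower to the upper quartile. Mitochondrial ribosomal genes lie at 38.4 and 39.2 in NR cells and at 66.4 and 58.8 at 2 h, and cytosolic ribosomal genes lie highest in all 6 libraries.

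The first comparison asked whether called polymerase at these promoters changed after 30 min of restimulation. None of the 57 genes tested passed in either direction (limma on log2(bp + 100), each library centred on its median over the 7410 genes, Benjamini-Hochberg over 9908 genes), where 0.242% of all genes did. At an unadjusted p under 0.05, 2 of 57 were called, beside 8.0% of all genes. The median log2 change was -0.007 for the family and -0.039 for all genes, and 28 of 57 values were positive. Within the replicates 1 the family median was 0.069, as it was for all genes, and within the replicates 2 it was -0.104, beside -0.106. Called lengths did not overlap between the groups, with 30 min longer, for 6 of 57 genes, where 11.5% of all genes did so, and for 0 with 30 min shorter, beside 1.16%. After centring these counts were 8 longer and 8 shorter (14.0% each), beside 18.8% and 18.9%.

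Mrpl33, a small protein of the large subunit whose promoter is printed with its ETS match, had 853 and 1820 bp at 30 min, against 591 and 680 bp in NR cells. Both 30 min values were above both NR values. The log2 change was 0.72 ± 0.16 (SE) with an adjusted p of 0.277 in limma. Mrpl52 had 1641 and 2679 bp at 30 min, against 1120 and 877 bp in NR cells, with no overlap, a log2 change of 0.85 ± 0.30 (SE) and a limma adjusted p of 0.569. Mrpl19 had 777 and 960 bp at 30 min, against 412 and 543 bp in NR cells, and Mrpl38 had 613 and 923 bp, against 326 and 585 bp. Their log2 changes of 0.59 and 0.50 missed the test with limma adjusted p of 0.649 and 0.701.

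The other genes with the largest positive values were Mrpl11 (1.36), Mrps22 (0.85), Mrpl17 (0.48) and Mrps9 (0.38, a protein of the small subunit's head), and none passed. For Mrpl11 and Mrps22 the value rests on the absent call in NR replicate 1. The 8 most negative values were those of Mrpl42 (-0.50), Mrps35 (-0.35), Mrps25 (-0.31), Mrpl55 (-0.30), Mrps31 (-0.28), Mrpl28 (-0.27), Mrpl51 (-0.26) and Mrps28 (-0.25). Their adjusted p-values in limma ran from 0.705 to 0.996, and the groups of each overlapped in bp. Mrpl42 had 327 and 648 bp at 30 min, against 630 and 603 bp in NR cells. After centring both 30 min values lay under both NR values, with changes of -0.71 within replicates 1 and -0.30 within replicates 2.

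The second comparison asked the same after 2 h. Called lengths were greater than in NR cells for most of the family, as for most genes, and no gene of the family moved past the test relative to that common shift. The shift of the centring medians was 0.48 (log2), so that 56 of 57 uncentred values were positive, with a median log2 change of 0.54 beside 0.45 over all genes. After centring the medians were 0.064 and -0.032, and 34 of 57 values were positive. Within the replicates 1 they were 0.134 for the family and -0.043 for all genes, and within the replicates 2 they were -0.043 and -0.105. None of the 57 genes passed in limma in either direction, beside 0.434% of all genes, and 8 of 57 (14.0%) had an unadjusted p under 0.05, beside 12.6%. In bp the groups did not overlap, with 2 h longer, for 41 of 57 genes (71.9%), where 52.3% of all genes did so, and with 2 h shorter for 1, beside 2.09%. After centring they did not overlap for 18 with 2 h longer (31.6%, beside 22.3%) and for 14 with 2 h shorter (24.6%, beside 30.8%). Each 2 h library had more inferred depth than the NR library with the fewest reads and less than the deepest, and the part of depth in these lengths was not tested.

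Mrpl33 stood closest to the threshold. It had 2233 and 2565 bp at 2 h, against 591 and 680 bp in NR cells, or 2399 ± 235 bp against 635.5 ± 62.9 bp (SD, n = 2 each). Both 2 h values were over those of the 30 min libraries (853 and 1820 bp), and those over NR. The centred log2 change was 1.29 ± 0.16 (SE), 1.23 within replicates 1 and 1.34 within replicates 2, with a limma adjusted p of 0.0562 and a range of 0.0175 to 0.443 over the alternative settings. The added length lay downstream of the start: the downstream edge of its peak was 2052 and 2266 bp past the start at 2 h, against 377 and 443 bp in NR cells, while the upstream edge was 180 and 298 bp before it, against 213 and 236 bp. No other coding gene's span lay in the peak. Counted only within 1000 bp of the start, a window the 2 h peak overran, its log2 change was 0.46 with a limma adjusted p of 0.443. Leaving out 30 min replicate 1 or replicate 2 brought the adjusted p to 0.044 and 0.0343, and leaving out 2 h replicate 1 or 2 gave 0.364 and 0.363 for the smallest of the family, that of Mrpl33.

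Mrps6, a protein of the small subunit's platform, had 2073 and 2016 bp at 2 h, against 848 and 981 bp in NR cells. The 2 h values were more than both NR values, with a log2 change of 0.61 ± 0.19 (SE) and a limma adjusted p of 0.324. Its downstream edge was at 1552 and 1356 bp at 2 h, against 293 and 385 bp in NR cells. The peak also covers part of the span of Slc5a3, and polymerase on Mrps6 and on Slc5a3 cannot be told apart there. Mrpl17, at the exit of the tunnel, had 1564 and 1580 bp at 2 h, against 446 and 918 bp in NR cells, with a log2 change of 0.69 ± 0.24 (SE) and an adjusted p of 0.352 in limma. Mrpl36, a small zinc-binding protein, had 1706 and 2364 bp at 2 h, against 452 and 1480 bp in NR cells, without overlap in bp but overlapping after centring. It had a log2 change of 0.70 ± 0.41 (SE) with an adjusted p of 0.524 in limma. Its change was 1.19 within replicates 1 and 0.21 within replicates 2, and 0.10 without NR replicate 1. Mrpl11 had the largest log2 change, 1.88 ± 0.69 (SE), and missed the test with a limma adjusted p of 0.368. It had no call in NR replicate 1, and without that library the change was 0.89, below that of Mrpl33.

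Mrpl34 (1.18), Mrps25 (1.10) and Mrps22 (1.02) had positive values with SEs of 1.41, 0.92 and 0.85, and each had no call in NR replicate 1. Without that library the values were -0.55 for Mrpl34, 0.11 for Mrps25 and -0.24 for Mrps22. The 8 most negative values were those of Mrpl51 (-0.64), Mrpl28 (-0.44), Mrps35 (-0.35), Mrpl22 (-0.34), Mrpl35 (-0.30), Mrpl4 (-0.29), Mrpl15 (-0.28) and Mrps23 (-0.26). Mrpl51 had 1381 and 1443 bp at 2 h, against 1688 and 1506 bp in NR cells, the only gene of the 57 whose 2 h lengths lay under both NR lengths (limma adjusted p 0.395). Its peak reaches into Ncapd2, a condensin gene that starts 614 bp away on the other strand. Without centring the other 7 were positive, from 0.035 (Mrpl28) to 0.21 (Mrps23).

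**Figure D3:**
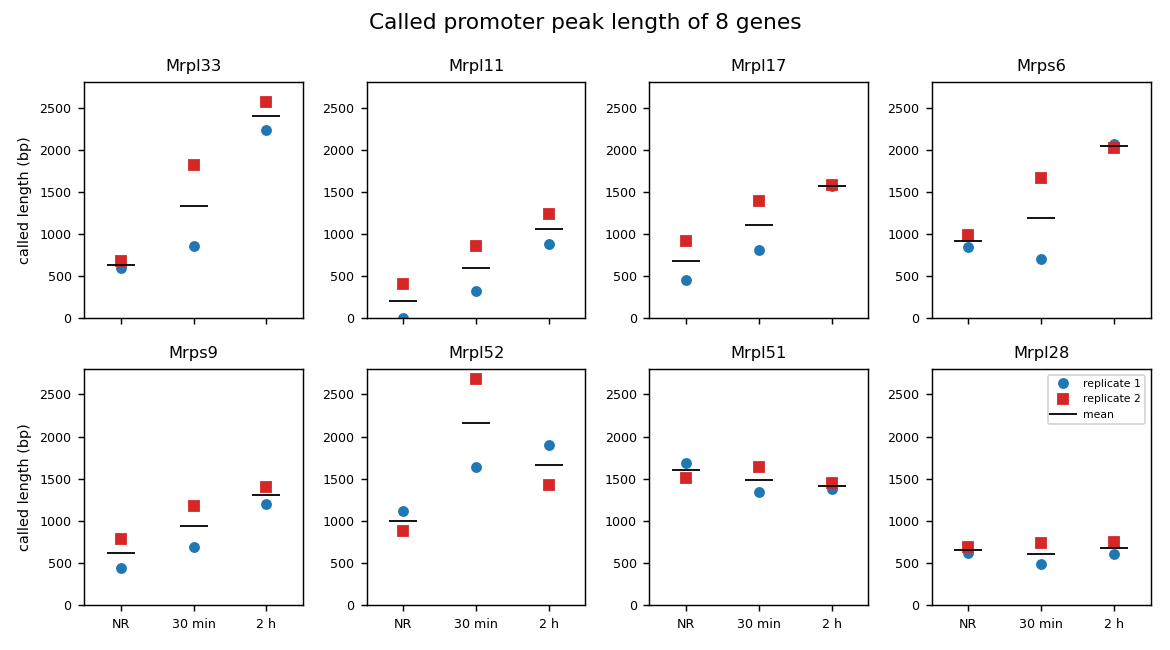
Called promoter peak length in bp for 8 genes in NR cells, at 30 min and at 2 h, with a circle for replicate 1, a square for replicate 2 and a bar for their mean. Mrpl33 reaches 2233 and 2565 bp at 2 h, above the 591 and 680 bp of NR cells, while Mrpl28 stays between 484 and 742 bp.

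Between the 2 restimulated groups, none of the 57 genes passed at 2 h against 30 min in limma, as none of all 9908 genes did (0.0%). At an unadjusted p under 0.05, 4 of 57 were called, beside 5.18% of all genes. The median log2 change was 0.083 for the family and -0.015 for all genes, and 37 of 57 values were positive. Within the replicates 1 the medians were 0.027 and -0.036, and within the replicates 2 they were 0.1 and -0.016. Lengths at 2 h were above both 30 min lengths for 20 of 57 genes (35.1%), where 17.0% of all genes did so, and under both for 1, beside 0.727%. After centring they were above both for 20 (35.1%), beside 17.4%, and under both for 8 (14.0%), beside 19.0%. By subunit, 17 of 22 Mrps genes and 20 of 35 Mrpl genes had positive values, with medians of 0.178 and 0.018, and that difference was not tested.

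Mrps31 had 977 and 1428 bp at 2 h, against 394 and 770 bp at 30 min, with no overlap and a log2 change of 0.65 ± 0.21 (SE) that missed the test (limma adjusted p 0.836). Mrpl33 had a log2 change of 0.57 with an adjusted p of 0.695 in limma. Mrps16 had 1781 and 1874 bp at 2 h, against 786 and 1335 bp at 30 min, a log2 change of 0.46 and a limma adjusted p of 0.866. Its peak reaches the span of Cfap70. The other positive values were those of Mrps25 (1.42 ± 0.92, SE), Mrpl34 (1.38 ± 1.41, SE), Mrps6 (0.53), Mrpl11 (0.53) and Mrpl36 (0.38). Mrps25 and Mrpl34 had no call in 30 min replicate 1, and without that library they were 0.81 and -0.077. The 8 most negative were those of Mrpl52 (-0.65), Mrpl10 (-0.59), Mrpl4 (-0.58), Mrps12 (-0.41, at the decoding site), Mrpl48 (-0.40), Mrpl51 (-0.38), Mrpl22 (-0.33) and Mrpl41 (-0.23). Mrpl10, of the stalk that recruits translation factors, had 792 and 739 bp at 2 h, against 858 and 1038 bp at 30 min, the only gene whose 2 h lengths lay under both 30 min lengths. Its peak reaches into the span of Lrrc46. Mrpl4 had 1335 and 1339 bp at 2 h, against 1065 and 2451 bp at 30 min, overlapping in bp and lower without overlap after centring (-0.29 within replicates 1 and -0.87 within replicates 2).

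**Figure D4:**
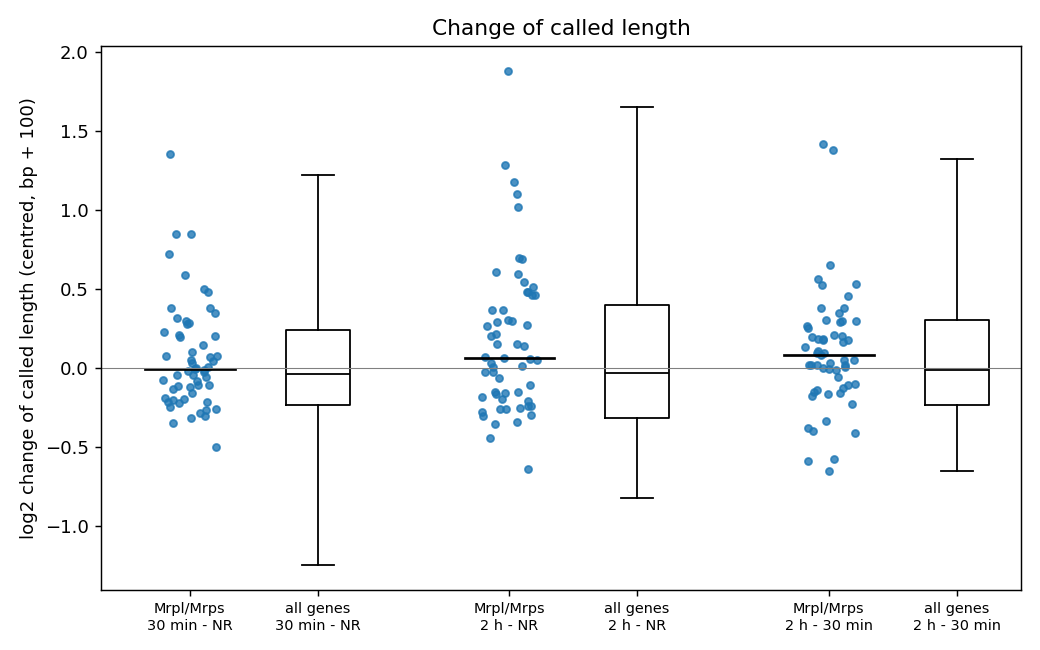
Log2 change of called length (centred, bp + 100) for the 57 tested Mrpl and Mrps genes (points, bar at the median) beside all 9908 genes (box from quartile to quartile, line at the median, whiskers at the 5th and 95th percentiles) in the 3 comparisons. The family medians are -0.007, 0.064 and 0.083, inside the boxes of all genes.

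The ends of the peaks showed where the added length lay. Over the 53 genes with a peak in every library, the median downstream edge stood 359 and 418 bp past the start in NR cells, 379 and 577 bp at 30 min and 640 and 702 bp at 2 h. The median upstream edge stood 197 and 313 bp, 198 and 349 bp, and 300 and 396 bp before it. Downstream, both 2 h libraries had the median edge farther out than both NR libraries. Upstream, the median edge of 2 h replicate 1 (300 bp) lay nearer the start than that of NR replicate 2 (313 bp). The part of depth in these edges was not tested. At 2 h against NR the downstream edge lay farther out without overlap of the groups for 41 of 53 genes (77.4%), beside 61.0% of the 7410 genes, and the median gene gained 252.5 bp, beside 210.0 bp. The upstream edge did so for 18 of 53 (34.0%), beside 38.0%, with median gains of 94.5 and 78.5 bp. At 30 min against NR the counts were 10 of 53 downstream, beside 19.2%, and 4 of 53 upstream, beside 11.2%. At 2 h against 30 min they were 25 of 53 downstream (47.2%), beside 23.3%, and 5 of 53 upstream, beside 14.9%. These shares carry no test.

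Mrpl33 had the largest outward move of the downstream edge among the 53 genes at 2 h against NR, 1749 bp between group means, followed by Mrps6 (1115 bp), Mrpl36 (827 bp), Mrpl23 (796 bp) and Mrpl17 (765 bp). The peak of Mrps6 also covers part of the span of Slc5a3. Mrpl23 is named here after its values were seen. The edge of Mrpl36 lay at 1489 and 2062 bp at 2 h, against 271 and 1626 bp in NR cells, so the groups overlapped and its place rests on NR replicate 1. Summits stayed near the start: their median lay 55 and 54 bp downstream in NR cells, 87 and 64 bp at 30 min, and 79 and 62 bp at 2 h. The summit was within 250 bp of the start for 47 to 52 of the 53 genes by library, or 88.7 to 98.1%, beside 76.3 to 80.8% of the 7410 genes. The position of highest signal was thus the start region in all 3 groups while the called edges differed.

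**Figure D5:**
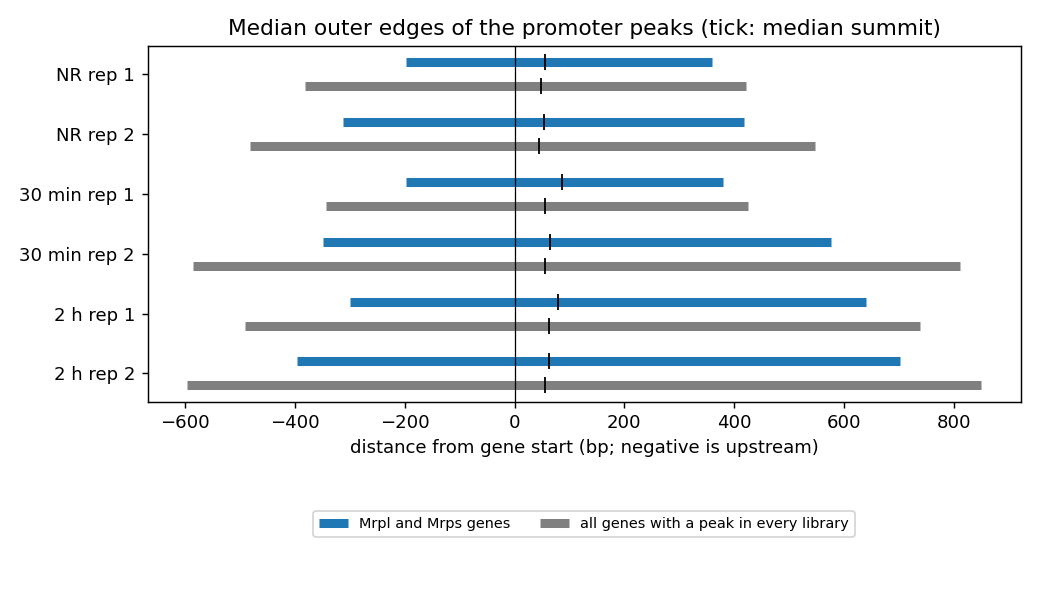
Median outer edges of the promoter peaks in bp from the gene start (negative is upstream) in each library, for the 53 Mrpl and Mrps genes with a peak in every library (blue) and all 7410 such genes (grey), with a tick at the median summit. The blue bars end at 359 and 418 bp in NR cells and at 640 and 702 bp at 2 h, and are shorter than the grey bars in all 6 libraries.

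The other genes of mitochondrial gene expression were listed as 59 factors, of which 48 had a peak and 46 were tested. They were initiation, elongation and release factors, tRNA synthetases, proteins of transcription, RNA processing and membrane insertion, and ribosome subunits with other names. The list holds Ict1, the older symbol of Mrpl58, so it is not fully separate from the family. None of the 46 passed in limma in any of the 3 comparisons. An unadjusted p under 0.05 was found for 1 of 46 at 30 min against NR (2.17%), beside 8.0% of all genes. At 2 h against NR it was found for 3 (6.52%), beside 12.6%, and at 2 h against 30 min for 0, beside 5.18%. The median log2 change of the 46 genes at 2 h against NR was 0.021, beside 0.064 for the ribosomal family. Mtif2, the initiation factor that joins the subunits with the initiator tRNA, had 1801 and 2624 bp at 2 h, against 752 and 859 bp in NR cells, without overlap and with a log2 change of 0.86 (limma adjusted p 0.294). Mrrf, the ribosome recycling factor, had 939 and 970 bp at 2 h, against 0 and 907 bp in NR cells (1.26 ± 0.95, SE, limma adjusted p 0.613). Fastkd2 had the largest value, 1.5 ± 0.78 (SE, limma adjusted p 0.491), with 1045 and 695 bp at 2 h, against 0 and 489 bp in NR cells. Mrrf and Fastkd2 had no call in NR replicate 1. Oxa1l, which inserts newly made proteins into the inner membrane, had a log2 change of -0.42 (limma adjusted p 0.456). Mtif3 had the most negative value, -0.49 ± 0.69 (SE, limma adjusted p 0.787).

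Cytosolic ribosomal protein genes and oxidative phosphorylation genes gave the frame for these values. At 2 h against NR the median log2 change was 0.52 for 66 cytosolic ribosomal protein genes, of which 1 was longer and 1 shorter in limma and 39 (59.1%) had an unadjusted p under 0.05, and 0.023 for 67 oxidative phosphorylation genes, of which none passed and 5 (7.46%) had an unadjusted p under 0.05, beside the 12.6% of all genes. Rps27 had 5911 and 5815 bp at 2 h, against 714 and 933 bp in NR cells, with a log2 change of 2.22 and a limma adjusted p of 0.0207. The gene that was shorter, Rps3a1, was listed with no peak at 2 h, against 771 and 1422 bp in NR cells (limma adjusted p 0.0173). Differences between the sets were not tested.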

How the data were processed

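RNA polymerase II ChIP-seq was analysed in 6 libraries, 2 per group. Per the labels, peaks were called by library. The submitters' processing notes name mm10, BWA 0.7.13, Picard 1.119 and MACS2 2.1.0, with no role or order. The deposited tables list peaks within 1000 bp of a start, each assigned by the authors to 1 gene, with its width in bp, pileup signal (coverage at the summit), fold enrichment (a ratio to background) and −log10 of p- and q-values, per the file headers. The deposited pileups were whole numbers in replicates 1 and scaled in replicates 2. Read counts were not used here, so depth is known only as inferred. Relative depth was inferred from pileup and fold enrichment. The deposited summit lists gave no value used here.

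A gene's value was the summed width of its peaks. Log2(bp + 100) was centred per library on the median of 7410 genes with a peak in all 6, over the 9908 of 10419 genes called in 2 or more libraries, and fitted with limma 3.58.1 in R 4.3.3 (group term, eBayes with trend, Benjamini-Hochberg over all genes, threshold 0.05). Folds of low values are understated. Fold enrichment was ranked only within a library. Python 3.11.15 made the tables. Members, lists and tests were chosen with earlier results of these data known. The rule names, per comparison, the 8 largest and 8 smallest changes, plus the 5 longest, 5 shortest, 5 highest-ranked and 5 lowest-ranked genes. The histone and input libraries (4) were not analysed here.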

Additional observations from a re-analysis of the deposited data

How the results depend on the processing

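Of 851 values of named genes under 18 alternative settings, 825 kept their direction and their side of the threshold, 19 changed sign and 7 passed the test. The number passing at 2 h against NR was 1 with only genes called in all 6 libraries, with only the 4 libraries compared, and with a pseudocount of 1000 bp (Mrpl33 each time), and 2 with lists of equal length (Mrpl33 and Mrpl11). Leaving out 1 library gave 0 to 1. The replicate block left 0 passing at 2 h, with a smallest adjusted p of 0.0951 in limma (Mrpl33). Same-numbered libraries correlated in their deviations (0.44, 0.27 and 0.41 for the 3 pairs of groups), and no label pairs them. Replicates 1 had whole-number pileups and replicates 2 scaled ones. In each group replicate 2 had the greater inferred depth. The cause of the correlation was not tested.

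Without centring the family medians were 0.15, 0.54 and 0.40. At 2 h against NR the median was 0.13 by position and -0.012 with the pseudocount of 1000 bp. Leaving out libraries gave -0.035 to 0.076 at 30 min against NR, 0.01 to 0.09 at 2 h against NR and 0.003 to 0.13 at 2 h against 30 min. A stricter threshold (−log10 q over 5) gave 1 gene gaining a peak at 2 h against NR and 1 against 30 min (Mrps25), and lists of equal length gave 1 at 30 min and 1 at 2 h against NR (Mrpl11). Over all genes, 245 and 67 gained a peak in the same comparisons under the stricter threshold, and 97 and 238 with lists of equal length. Leaving out a library gave 0 to 2, 0 to 4 and 0 to 2 genes of the family gaining and 0 to 1 losing a peak in each comparison. The largest counts of gains came without NR replicate 2 (2 and 4) and without 30 min replicate 2 (2), which left the shallower library alone in its group. Counts over all genes were not taken there.

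Signs changed as follows. At 30 min against NR, Mrps31 was 1.00 under the stricter threshold, and leaving out libraries in turn gave -0.42 to 2.11 for Mrps22 (lowest without NR replicate 1) and -1.30 to 0.68 for Mrps25 (0.30 without 30 min replicate 1 and highest without NR replicate 2). At 2 h against NR without centring, values were 0.035 (Mrpl28), 0.12 (Mrps35), 0.13 (Mrpl22), 0.17 (Mrpl35), 0.18 (Mrpl4), 0.20 (Mrpl15) and 0.21 (Mrps23). Mrpl34 was -0.52 with lists of equal length and -0.55 without NR replicate 1 (to 2.91 without NR replicate 2), and Mrps22 was -0.24 and 2.28 without the same libraries. At 2 h against 30 min, Mrpl33 was -0.076 by position, Mrpl34 was -0.31 with lists of equal length and -0.077 to 2.84 on leaving out libraries (lowest without 30 min replicate 1), and Mrpl41 was 0.089 without centring and -0.54 to 0.091 on leaving out libraries (highest without 30 min replicate 1). The cause was not tested.

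Groups of 2 libraries of unequal depth limit every comparison.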

Other observations

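Family genes whose peaks the authors assigned elsewhere could be measured by position for 17 of the 19, an addition made after the data were seen. Within 1000 bp of the RefSeq start, none of the 17 passed in limma, and 1 had an unadjusted p under 0.05 (Mrpl50, at 2 h against NR, where 9.85% of all genes in that fit did). Mrpl50 had 1479 and 1442 bp at 2 h, against 544 and 689 bp in NR cells, without overlap, with a log2 change of 0.72 and a limma adjusted p of 0.293. Its 30 min values were 717 and 1140 bp. The same stretch is the promoter of Zfp189, a zinc-finger gene, so polymerase on the 2 genes cannot be told apart. Their median log2 change was -0.18 at 2 h against NR, beside 0.13 for the 59 genes with an assigned peak measured in the same way and -0.052 for all 10158 genes. In this fit too, no gene with an assigned peak passed, and Mrps9 had the smallest adjusted p at 2 h against NR (0.422 in limma).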
